A study of Mus musculus with 12 samples.

Results

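Interferon gamma (IFNγ) at 2 U/ml, the middle of 3 doses, was compared with no treatment in bone-marrow-derived macrophages of C57BL6 mice. These are primary phagocytes grown from bone marrow, here over 10 days with IL-3 and with L-929 conditioned medium, which supplies CSF-1. The treated cells described here received 2 U/ml IFNγ for 8 h, and the cells they were set against received none. Other groups received 0.2 U/ml or a dose labelled 20 U, with no volume, which is written as 20 U/ml here. The labels list 3 libraries for each of the 4 groups, 12 in all, and do not say whether they came from separate mice or cultures. The deposited table holds 1 value per entry and group in FPKM, a read measure scaled to transcript length and library size, so levels of different genes can be set side by side per length. No spread between replicates could be taken from it, and no difference below has a test, a standard deviation or a p-value.

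Entries were included when their mean over the 4 groups was at least 1 FPKM and none of the 4 values was an exact 0. That left 11580 of the 46729 entries, and members of gene lists are called measured when they were among these. The ratio used throughout is log2((FPKM at 2 U/ml + 1)/(FPKM in untreated cells + 1)), which understates differences of genes with low values. An entry is called higher when this log2 ratio was 1 or more, a 2-fold difference on that scale, and lower when it was -1 or less. By this rule 289 entries, 2.50% of those included, were higher at 2 U/ml and 88 entries, 0.760%, were lower. The median log2 ratio over all 11580 was 0.01, and its values ran from -0.51 at quantile 0.05 to 0.61 at quantile 0.95.

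IFNγ binds a receptor of IFNGR1 and IFNGR2 chains, which carry the kinases JAK1 and JAK2. The kinases activate STAT transcription factors, which bind gamma-activated sites (GAS) in promoters. Among the genes so induced is IRF1, a transcription factor that binds interferon-stimulated response elements (ISRE) and extends the response to further genes. In macrophages the response is known for antigen presentation, for GTPases that attack vacuoles holding microbes, for chemokines that draw T cells, and for microbicidal enzymes.

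The promoters of 4 genes that were higher at 2 U/ml are printed here because they hold the letters of these elements. Each is the RefSeq window of 250 bases before to 50 bases after a gene start on GRCm38.p6, read 5′ to 3′ on the strand of the gene. Capitals mark matches to the GAS core TTCNNNGAA or the ISRE core GAAANNGAAA, searched on both strands. The GAS core reads the same on both strands, and the ISRE core on the other strand reads TTTCNNTTTC. The Tgtp2 window (chr11:49064163-49064462, minus strand) holds a GAS match starting 81 bases before the gene start and an ISRE match starting 70 bases before it. The Gbp2 window (chr3:142620413-142620712, plus strand) holds an ISRE match that starts 59 bases before the gene start. The Irf1 window (chr11:53769764-53770063, plus strand), 1 of 2 listed for the gene, holds a GAS match that starts 90 bases before the start. The Socs1 window (chr16:10785487-10785786, minus strand) holds ISRE matches that start 83 and 77 bases before the start and overlap each other.
Tgtp2: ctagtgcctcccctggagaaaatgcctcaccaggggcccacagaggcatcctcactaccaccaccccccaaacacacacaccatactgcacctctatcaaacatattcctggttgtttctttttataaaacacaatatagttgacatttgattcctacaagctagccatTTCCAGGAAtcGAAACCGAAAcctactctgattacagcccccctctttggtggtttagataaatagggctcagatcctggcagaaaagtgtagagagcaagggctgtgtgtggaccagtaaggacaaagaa
Gbp2: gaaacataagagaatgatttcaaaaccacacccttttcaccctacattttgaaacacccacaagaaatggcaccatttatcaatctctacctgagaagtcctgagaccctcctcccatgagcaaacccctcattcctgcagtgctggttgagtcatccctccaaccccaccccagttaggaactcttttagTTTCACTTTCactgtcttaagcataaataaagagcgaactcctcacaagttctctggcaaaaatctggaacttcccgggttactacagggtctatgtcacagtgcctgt
Irf1: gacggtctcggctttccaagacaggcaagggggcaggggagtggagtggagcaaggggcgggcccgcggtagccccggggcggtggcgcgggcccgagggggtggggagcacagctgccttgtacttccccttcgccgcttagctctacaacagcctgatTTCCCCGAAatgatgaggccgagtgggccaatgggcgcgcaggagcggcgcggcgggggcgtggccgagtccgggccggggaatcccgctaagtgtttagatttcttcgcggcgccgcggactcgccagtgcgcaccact
Socs1: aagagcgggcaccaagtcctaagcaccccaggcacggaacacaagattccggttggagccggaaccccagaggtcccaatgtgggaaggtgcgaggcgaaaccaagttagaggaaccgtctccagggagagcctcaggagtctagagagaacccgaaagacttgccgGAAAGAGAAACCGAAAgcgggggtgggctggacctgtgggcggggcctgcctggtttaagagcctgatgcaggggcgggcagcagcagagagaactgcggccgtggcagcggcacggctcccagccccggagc

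Windows were found for 160 of the 264 single-gene entries that were higher. Of the 160, 41 held the ISRE core in any of their windows, a share of 25.6%. The core was held by 3.40% of 7509 entries that were neither higher nor lower and 3.99% of all 27018 genes with a window. The GAS core was in 28 of the 160, or 17.5%. It was in 8.10% of the entries that were neither and in 9.55% of all genes with a window. One or the other core was in 38.8% of the higher entries with a window, against 11.0% of those that were neither. The exact 95% binomial interval of the ISRE share ran from 19.1% to 33.1% among the higher entries and from 3.00% to 3.83% among the entries that were neither. Among the 47 entries with a window and a log2 ratio of at least 2, 40.4% held the ISRE core and 21.3% the GAS core. None of the 27 lower entries with a window held either, for which the interval reached 12.8%. These shares count letters and not bound sites, several higher genes are near-identical copies with similar promoters, and no test was made. The intervals cover counting error only.

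Of the 289 higher entries, 208 were single protein-coding genes, 25 merged overlapping genes and 25 held only RNAs under 200 nt. The higher entries had a median of 29.5 FPKM at 2 U/ml against 7.8 FPKM in untreated cells, and 79 of them had a log2 ratio of at least 2. At 250 of the 289 the untreated level was already at least 1 FPKM. The lower entries were fewer and nearer the threshold, with a median log2 ratio of -1.27 against 1.51 for the higher ones.

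**Figure D1:**
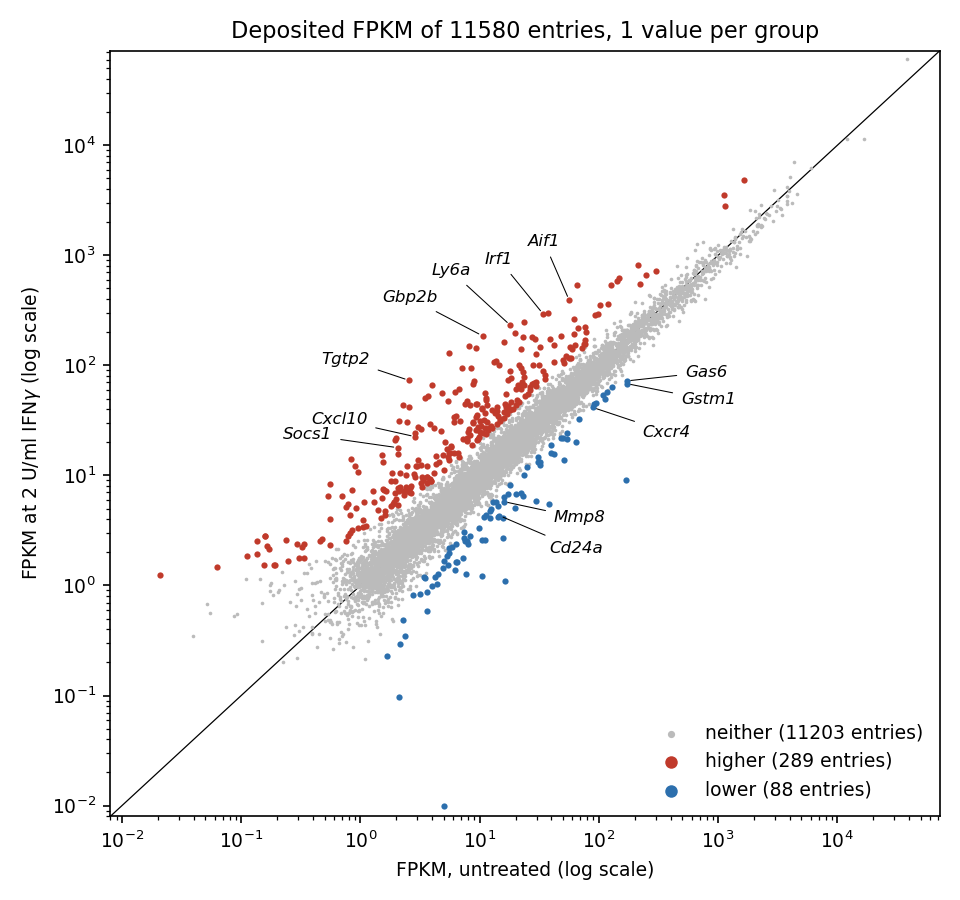
FPKM of each included entry at 2 U/ml (vertical axis) and in untreated cells (horizontal axis), both on log scales, with a line of equality. Entries called higher (289) are red, entries called lower (88) blue and the rest grey, and red points outnumber blue ones over most of the range.

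The genes of the receptor complex differed little. Of 4 measured entries of receptors and kinases, 0 were higher and 0 lower. Their median log2 ratio was 0.06. The ligand-binding chain Ifngr1 was at 44.2 FPKM at 2 U/ml and 53.9 FPKM in untreated cells, and the signalling chain Ifngr2 at 37.2 and 37.0 FPKM. Jak1 was at 29.3 FPKM at 2 U/ml and 26.9 FPKM in untreated cells, and Jak2 at 7.17 and 4.77 FPKM, the largest log2 ratio of the 4 at 0.50.

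Transcription factors downstream differed more. Stat2, which joins IRF9 in a complex that binds ISREs, was at 43.5 FPKM at 2 U/ml, against 11.5 FPKM in untreated cells, and Stat3, the main mediator of IL-6 and IL-10 signals, at 37.8 against 16.1 FPKM. Both were past the size rule. Stat5a, Stat5b and Stat6, which serve growth factor and IL-4 receptors, had log2 ratios between -0.03 and 0.10, and the entry that merges Irf9 with Rnf31 had 0.79.

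Irf1 (chromosome 11, 53770014 to 53778374, GRCm38), whose promoter is printed above, was at 34.1 FPKM untreated, 89.1 FPKM with 0.2 U/ml, 293 FPKM with 2 U/ml and 511 FPKM with 20 U/ml. Its log2 ratio at 2 U/ml was 3.07. Batf2, a leucine-zipper factor that partners IRF1 in macrophages, was at 27.7 FPKM at 2 U/ml, against 3.04 FPKM in untreated cells. Irf7, a driver of type I interferon genes, was at 74.3 against 17.2 FPKM. The co-activator of MHC class I genes, Nlrc5, was at 34.5 against 6.28 FPKM, and its class II counterpart Ciita at 2.79 against 0.157 FPKM. With Irf1, these were the 5 of 14 measured IRF, BATF and MHC regulators that were higher. Irf8 was not analysed here.

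Among 8 measured feedback inhibitors 2 were higher. Socs1, which blocks the receptor-bound JAK kinases (chromosome 16, 10782240 to 10785536), was at 17.9 FPKM at 2 U/ml, against 2.06 FPKM in untreated cells. Usp18, which removes ISG15 from proteins and dampens the type I interferon receptor, was at 20.9 against 7.81 FPKM. Socs3, an inhibitor of IL-6 family receptors, was just short of the size rule at 3.02 against 1.06 FPKM, a log2 ratio of 0.96. The phosphatases Ptpn1, Ptpn2, Ptpn6 and Ptpn11 had log2 ratios from 0.22 to 0.53. Socs1 was far below its level at 20 U/ml, 138 FPKM. None of 12 NF-κB subunits and inhibitors was past the rule, with a median log2 ratio of 0.12.

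The 2 families of GTPases that act on vacuoles of intracellular microbes held the largest list medians. All 8 measured entries of guanylate-binding proteins were higher, with a median log2 ratio of 3.44, and so were 9 of 12 entries of immunity-related GTPases, with a median of 3.07. Tgtp2 (chromosome 11, 49057194 to 49064206), an immunity-related GTPase, had the largest ratio of the single-gene entries that the ranking covered, 4.38. It was at 2.55 FPKM untreated, 9.60 FPKM with 0.2 U/ml, 73.1 FPKM with 2 U/ml and 126 FPKM with 20 U/ml, so the value at 2 U/ml lay nearer to that at 20 U/ml than to the untreated one. Iigp1, another of this family, was at 129 FPKM at 2 U/ml, against 5.53 FPKM in untreated cells.

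Gbp2 (chromosome 3, 142620602 to 142638008) was at 150.3 FPKM at 2 U/ml, against 8.13 FPKM in untreated cells, and Gbp2b, its neighbour, at 186 against 10.6 FPKM. The merged entry of Igtp and Irgm2 was at 197 against 19.9 FPKM. Gm12250, annotated as a processed pseudogene in GENCODE M21, was at 52.8 against 3.68 FPKM. Close copies sit side by side in these families, so how reads were shared out among members is uncertain.

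**Figure D2:**
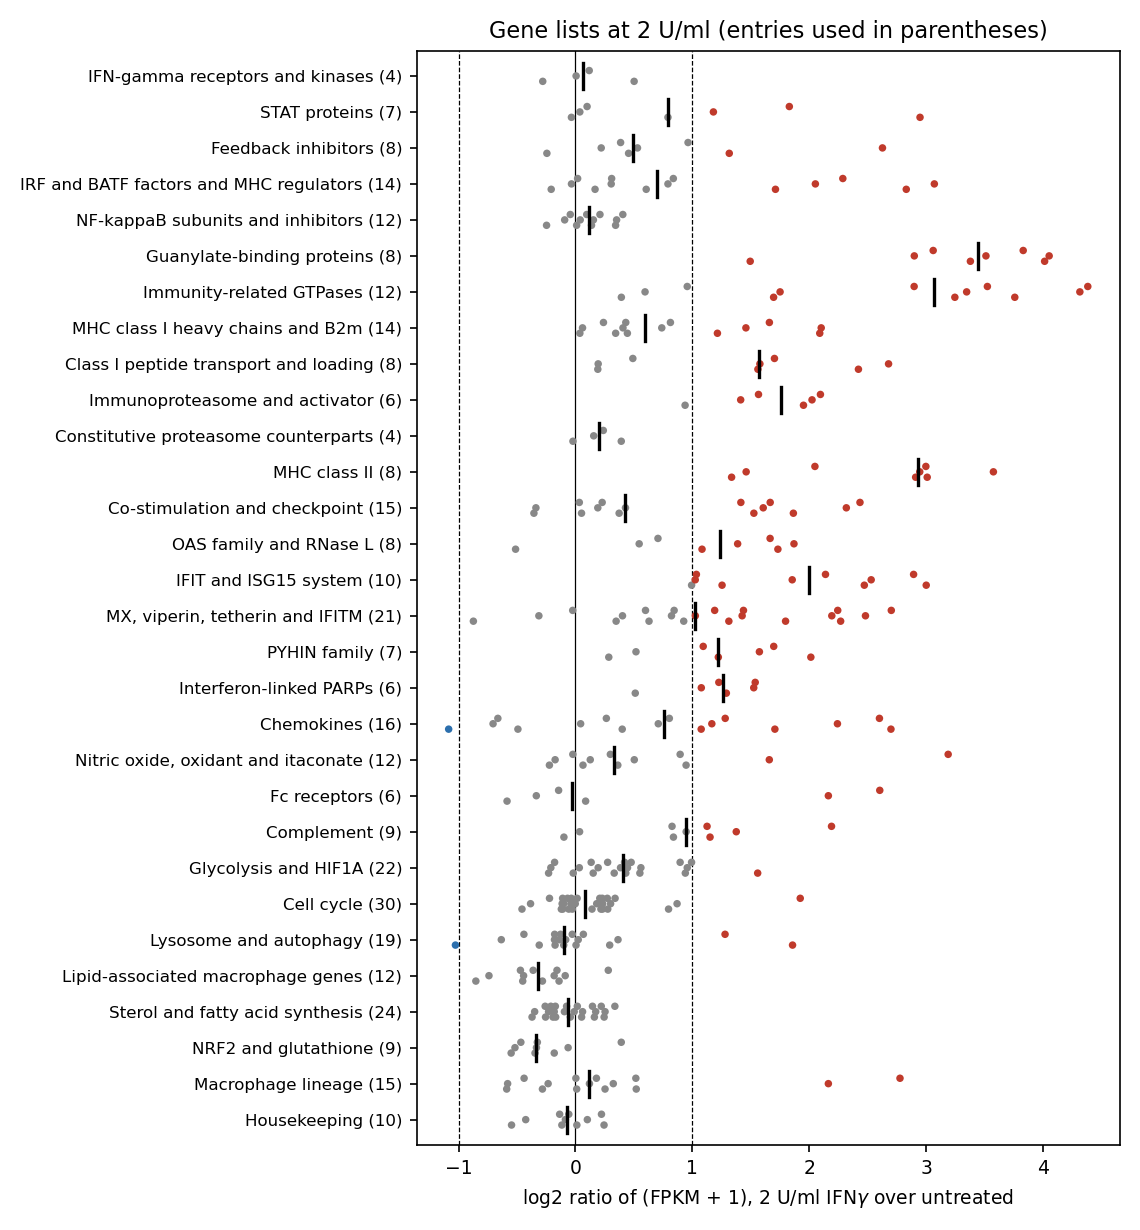
Log2 ratios of 2 U/ml over untreated for the measured members of gene lists, 1 point per entry, with list medians as bars and dashed lines at 1 and -1. Guanylate-binding proteins (median 3.44), immunity-related GTPases (3.07) and MHC class II (2.93) lie farthest to the higher side, and constitutive proteasome counterparts lie around 0.20.

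Genes of the MHC class II pathway, which presents peptides from endosomes to CD4+ T cells, were higher in all 8 measured entries. Their median log2 ratio was 2.93. H2-Oa, H2-Ob and H2-Eb2 did not pass the filter on the mean and are not among the 8. H2-Oa was at 0.639 FPKM at 2 U/ml, against 0.315 FPKM in untreated cells, and H2-Ob at 0.233 against 0.130 FPKM. H2-Ab1, a class II beta chain (chromosome 17, 34257689 to 34269419), was at 6.25 FPKM untreated, 14.2 FPKM with 0.2 U/ml, 56.8 FPKM with 2 U/ml and 181 FPKM with 20 U/ml. The alpha chain H2-Aa was at 108 FPKM at 2 U/ml, against 13.2 FPKM in untreated cells. The entry of the invariant chain Cd74, which escorts class II molecules, and Mir5107 was at 537 against 65.9 FPKM. H2-DMa, a chain of the peptide exchanger, was at 109 against 13.7 FPKM. Ciita, their regulator, was itself at only 2.79 FPKM.

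The class I pathway, which shows peptides from the cytosol to CD8+ T cells, differed more in peptide supply than in most heavy chains. Of 8 entries for peptide transport and loading 5 were higher, with a median log2 ratio of 1.57. The transporter subunit Tap1 (chromosome 17, 34187553 to 34197225) was at 183 FPKM at 2 U/ml, against 27.7 FPKM in untreated cells, and its partner Tap2 at 220.2 against 67.0 FPKM. Tapbpl, a peptide editor, was at 44.8 against 7.56 FPKM. Erap1, which trims peptides in the endoplasmic reticulum, was at 26.2 FPKM at 2 U/ml, against 8.21 FPKM in untreated cells, and its level at 20 U/ml was no higher at 25.7 FPKM.

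The 3 catalytic subunits that replace their constitutive counterparts in the immunoproteasome were all higher. Psmb8 was at 819 FPKM at 2 U/ml, against 211 FPKM in untreated cells, Psmb9 at 585 against 143 FPKM and Psmb10 at 628 against 146 FPKM. The activator subunits Psme1 and Psme2 had log2 ratios of 1.41 and 1.57, and the assembly factor Pomp was short of the rule at 0.94. Psmb9 was at 413 FPKM already at 0.2 U/ml, and Psmb10 at 579 FPKM. Of 4 constitutive counterparts 0 were past the rule, with log2 ratios from -0.02 for Psmb6 to 0.39 for the nuclear activator Psme3. At 0.2 U/ml the median of these counterparts was 0.42, against 0.20 at 2 U/ml. Psmb6 was at 1009 FPKM at 0.2 U/ml, against 544 FPKM in untreated cells and 536 FPKM at 2 U/ml. Psme3 had a log2 ratio of -0.10 at 0.2 U/ml.

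Tap1 and Psmb9 are divergent neighbours. Their RefSeq starts are 226 bases apart, and their promoter windows share 275 of 300 bases on opposite strands, so they are not separate promoter sequences. Neither window held a match to the GAS or ISRE core, which says only that these letters are not in these windows.

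Among 14 entries of class I heavy chains and B2m 5 were higher, with a median log2 ratio of 0.59. The 5 were H2-Q4, H2-T10, H2-T22, H2-T23 and H2-T24, all non-classical class I genes. H2-T23, which encodes the ligand of the NKG2A receptor, was at 543 FPKM at 2 U/ml, against 126 FPKM in untreated cells. The classical heavy chain H2-K1 was at 955 against 543 FPKM, a log2 ratio of 0.81. The heavy chain genes are close copies, so their shares of the reads are uncertain too.

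Of 15 co-stimulatory and checkpoint genes 7 were higher, though the median log2 ratio of the list was 0.43. Among its entries with a mean of at least 5 FPKM the median was 1.41. That mean takes in the treated groups, so it favours entries that were high there. Cd40 passed it with 2.17 FPKM in untreated cells and 56.3 FPKM at 20 U/ml. Cd80 and Icosl, at 3.27 and 3.34 FPKM in untreated cells, did not. Cd274, the gene of the checkpoint ligand PD-L1, was at 34.2 FPKM at 2 U/ml, against 6.06 FPKM in untreated cells. Cd40, which receives help from T cells, was at 10.5 against 2.17 FPKM, and the co-stimulatory ligand Cd86 at 15.1 against 4.30 FPKM. Tnfrsf14, the HVEM receptor, was at 11.1 FPKM untreated, 15.7 FPKM with 0.2 U/ml, 37.3 FPKM with 2 U/ml and 37.6 FPKM with 20 U/ml, so its values at the upper 2 doses were nearly the same. Slamf7, Slamf8 and Slamf9, of the SLAM family of leukocyte surface receptors, were also higher, with log2 ratios of 1.53, 2.43 and 1.41.

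Chemokines differed in both directions, with 7 of 16 entries higher and 1 lower. Cxcl10, a ligand of the chemokine receptor CXCR3 on T cells (chromosome 5, 92346638 to 92348889), was at 2.88 FPKM untreated, 4.54 FPKM with 0.2 U/ml, 22.5 FPKM with 2 U/ml and 151 FPKM with 20 U/ml. Cxcl9, a second ligand of that receptor (chromosome 5, 92321347 to 92328079), was at 1.04, 1.28, 3.96 and 163 FPKM in the same order. At 2 U/ml both were thus a small part of their level at the highest dose. Ccl5, which attracts T cells and monocytes, was at 7.36 FPKM at 2 U/ml, against 1.57 FPKM in untreated cells. The monocyte attractants Ccl8 and Ccl12 had log2 ratios of 2.70 and 2.24. Ccl3, an inflammatory chemokine of macrophages, was the lower one, at 22 against 47.8 FPKM.

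Receptors for chemoattractants also differed in both directions. The merged formyl peptide receptors Fpr2 and Fpr3 were at 9.68 FPKM at 2 U/ml, against 2.86 FPKM in untreated cells. Cxcr4, which holds cells in the bone marrow (chromosome 1, 128588199 to 128592293), was at 41.5 FPKM at 2 U/ml, against 88.6 FPKM in untreated cells.

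Of 10 measured cytokine and binding protein entries 1 was higher, and the median log2 ratio was 0.52, against 0.01 over all entries. That was Il18bp, the decoy that neutralises IL-18 (chromosome 7, 102014885 to 102018690), at 42.2 FPKM at 2 U/ml, against 2.55 FPKM in untreated cells. Tnf was at 22.9 against 15.8 FPKM and Il27 at 4.30 against 1.86 FPKM, both short of the rule. Among 20 cytokine and growth factor receptors 3 were higher. They were Il21r, the IL-15 presenter Il15ra and the IL-12 and IL-23 receptor chain Il12rb1, with log2 ratios of 1.50, 1.38 and 1.28.

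Antiviral genes shared with the type I interferon response were higher in most lists, by smaller ratios than the GTPases. The IFIT and ISG15 list, proteins that bind foreign RNA and the ubiquitin-like modifier with its enzymes, had 9 of 10 entries higher and a median log2 ratio of 2.00. Ifit3 was at 60.6 FPKM at 2 U/ml, against 6.71 FPKM in untreated cells, and Isg15 at 174 against 29.4 FPKM. Isg20, an RNA exonuclease, was the entry short of the rule, at 0.99. Mx1, a GTPase of the MX family, was at 13.2 against 1.54 FPKM, and Rsad2, or viperin, at 43.6 against 8.25 FPKM. In their list of 21 entries 11 were higher, with a median of 1.02.

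Of 8 OAS entries, which sense double-stranded RNA, 5 were higher, with a median log2 ratio of 1.24. Oasl2 led at 86.7 FPKM at 2 U/ml, against 23 FPKM in untreated cells. Zbp1, a sensor of Z-form nucleic acid that can start necroptosis, stood apart in the list of 8 cytosolic sensors, 4 of which were higher. It was at 163 FPKM at 2 U/ml, against 15.9 FPKM in untreated cells, a log2 ratio of 3.28, where Ddx58, the RNA sensor RIG-I, had 0.40. Of 7 PYHIN genes 5 were higher, led by Ifi204 at 77.3 against 18.4 FPKM. Of 6 interferon-linked PARP entries 5 were higher, with Parp14, a regulator of STAT signalling, at 31.0 against 10.0 FPKM.

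Microbicidal and metabolic enzymes were split. Acod1, which makes itaconate (chromosome 14, 103046977 to 103056573), was at 2.44 FPKM untreated, 5.45 FPKM with 0.2 U/ml, 30.3 FPKM with 2 U/ml and 125 FPKM with 20 U/ml. Ass1, which recycles citrulline to supply nitric oxide synthase with arginine, was at 29.7 FPKM at 2 U/ml, against 8.73 FPKM in untreated cells. Nos2, that synthase, was at 0.547 against 0.0921 FPKM, below the level at which this ratio can pass. The oxidase subunit Cybb was at 175 against 90.1 FPKM, a log2 ratio of 0.95. In all 2 of 12 entries of this list, Acod1 and Ass1, were higher.

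Hk3, a hexokinase of myeloid cells, was at 292 FPKM at 2 U/ml, against 98.5 FPKM in untreated cells, and was the 1 higher entry among 22 of glycolysis and HIF1A. Vegfa, Slc2a6, Hk2 and Pfkfb3 were short of the rule, with log2 ratios of 0.99, 0.96, 0.94 and 0.89. None of 25 entries of the TCA cycle and respiratory chain and none of 24 of sterol and fatty acid synthesis was past the rule, with medians of 0.11 and -0.06. Wars, the tryptophanyl-tRNA synthetase, was at 78.4 against 23.4 FPKM.

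Receptors for antibody differed from each other. Fcgr4 (chromosome 1, 171018920 to 171029761) and Fcgr1, activating receptors for IgG, were at 141 and 148 FPKM at 2 U/ml, against 22.3 and 32.3 FPKM in untreated cells. The inhibitory receptor Fcgr2b was at 46.7 against 70.6 FPKM, and Fcgr3, a further activating receptor, at 289 against 272 FPKM. Of 9 complement entries 4 were higher. C1qb, a chain of the C1q recognition protein, was at 101 FPKM at 2 U/ml, against 21.4 FPKM in untreated cells, and C1qa at 112 against 50.1 FPKM, while C1qc had a log2 ratio of 0.84.

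Pathogen sensing and cell death genes held single members past the rule. Tlr9, an endosomal sensor of DNA, was at 2.64 FPKM at 2 U/ml, against 0.474 FPKM in untreated cells, and Tlr8 had a log2 ratio of 1.02, the 2 higher of 14 Toll-like receptors and adaptors. Casp1 and Casp4, the caspases of pyroptosis, and Nod1, a sensor of peptidoglycan, were the 3 higher of 13 inflammasome entries, with log2 ratios of 1.14, 1.30 and 1.19. The pro-apoptotic Xaf1, the death-domain-associated protein Daxx and the necroptosis effector Mlkl were the 3 higher of 20 cell death and survival entries. Their log2 ratios were 1.38, 1.08 and 1.03.

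Some of the larger ratios lay in genes of varied roles. Ly6a, the Sca-1 antigen (chromosome 15, 74994877 to 74998031), was at 18.1 FPKM untreated, 40.8 FPKM with 0.2 U/ml, 231 FPKM with 2 U/ml and 1678 FPKM with 20 U/ml. Fgl2, a fibrinogen-like protein with prothrombinase activity, was at 55.7 FPKM at 2 U/ml, against 4.81 FPKM in untreated cells. Serpina3g, a serpin that inhibits cathepsins, was at 7.44 against 0.847 FPKM. Aif1, the actin-binding macrophage protein Iba1, was at 56.3 FPKM untreated, 279 FPKM with 0.2 U/ml, 392 FPKM with 2 U/ml and 580.2 FPKM with 20 U/ml, and most of its gain up to 2 U/ml was already there at 0.2 U/ml. Tgm2, a transglutaminase often used as a marker of alternative activation, was at 127 against 29.6 FPKM. It was the 1 higher entry among 8 measured genes of alternative activation. Cbr2 was the 1 lower entry, with a log2 ratio of -1.22, and the median of the list was -0.28.

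**Figure D3:**
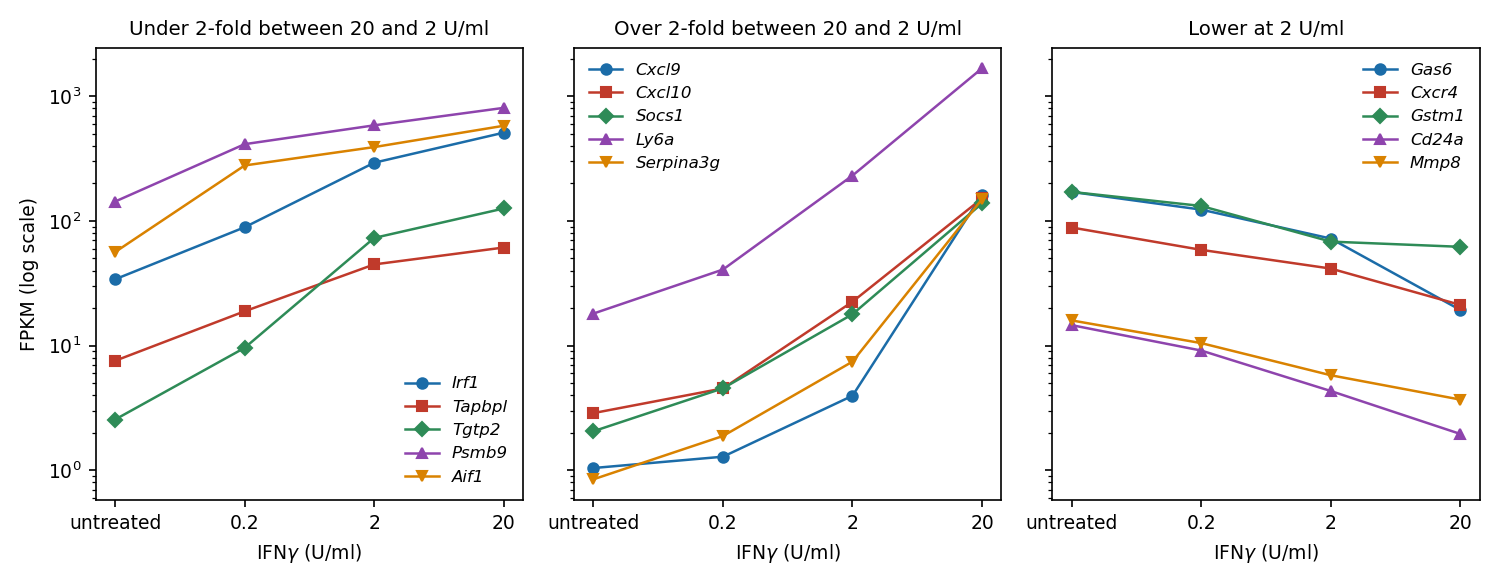
FPKM on a log scale in untreated cells and at 0.2, 2 and 20 U/ml for 15 genes in 3 panels, 1 deposited value per point. Irf1, Tapbpl, Tgtp2, Psmb9 and Aif1 differ by under 2-fold between 20 and 2 U/ml, Cxcl9, Cxcl10, Socs1, Ly6a and Serpina3g by more, and Gas6, Cxcr4, Gstm1, Cd24a and Mmp8 are lower at 2 U/ml.

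In units of FPKM, the largest gains were in abundant genes. Psme2 was at 4863 FPKM at 2 U/ml, against 1643 FPKM in untreated cells, and Ly6e, a surface antigen of the Ly6 family, at 2809.6 against 1151 FPKM. Summed over the 289 higher entries, the table held 30958 FPKM at 2 U/ml and 9304 FPKM in untreated cells, where the sums over all entries were 783701 and 769698 FPKM.

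Some of the higher genes lay near each other in the genome. Of 259 higher entries with 1 position on GRCm38, 57 fell in 14 runs of at least 3 higher entries with gaps of at most 100 kb. Runs were not counted over all included entries, so no background share stands beside these numbers. The longest run, 13 entries from H2-DMa to H2-Ea-ps (chromosome 17, 34119541 to 34344645), holds Tap1, Tap2, Psmb8 and Psmb9 among the class II genes. It also counts the RNAs Gm20496 and Gm15821, which overlap Psmb8 or Tap2. The Ifit run with Ch25h has 6 genes (chromosome 19, 34473778 to 34650009), and the Gbp run 4 genes (chromosome 3, 142493978 to 142638008). By chromosome, 5.24% of the included entries on chromosome 17 were higher and 4.07% on chromosome 19, where the share over all entries was 2.50%, against 0.398% on chromosome 10 and 0.322% on chromosome X. Neighbouring family members are copies of one another and are not independent.

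The 88 lower entries had a median of 4.18 FPKM at 2 U/ml against 12.6 FPKM in untreated cells. No gene list had more than 1 of them, but the lists do not hold every member of a family. Only 37 were single protein-coding genes, and 24 held only RNAs under 200 nt. Gas6, the ligand by which TAM receptors recognise dying cells (chromosome 8, 13465374 to 13494490), was at 171 FPKM untreated, 123 FPKM with 0.2 U/ml, 72.2 FPKM with 2 U/ml and 19.3 FPKM with 20 U/ml. Its receptors differed, with Axl at 18.1 FPKM at 2 U/ml, against 5.76 FPKM in untreated cells, and Mertk at 8.64 against 13.5 FPKM, a log2 ratio of -0.59.

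Gstm1, a glutathione transferase (chromosome 3, 108012255 to 108017973), was at 68.3 FPKM at 2 U/ml, against 171 FPKM in untreated cells, and its level at 20 U/ml, 62.0 FPKM, was close to that at 2 U/ml. Cd24a, a glycosylated surface protein (chromosome 10, 43578284 to 43584265), was at 4.32 against 14.6 FPKM, and Gadd45a, a stress and growth-arrest gene, at 12.4 against 32.2 FPKM. The collagenase Mmp8 was at 5.78 against 15.9 FPKM. Its neighbour on chromosome 9, Mmp27, was at 2.54 against 7.58 FPKM. A second glutathione transferase, Gsta3, was at 0.826 against 2.77 FPKM. Ltc4s, which makes leukotriene C4, was at 19.1 FPKM at 2 U/ml, against 39.7 FPKM in untreated cells. Lower, too, were Cnrip1, a protein that binds the cannabinoid receptor CB1 (log2 ratio -1.37), the carbonyl reductase Cbr2 (-1.22), the lysophosphatidylserine receptor Gpr34 (-1.27), the beta3 integrin Itgb3 (-1.08), the serpin Serpinb1a (-1.21) and the V-ATPase subunit Atp6v0d2 (-1.03).

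The lists of resting macrophage functions had medians slightly below 0 and few or no members past the rule. Over all included entries 2.50% were higher and 0.760% lower. At those shares alone, lists this short, here and above, can hold few or none. None of 10 scavenger receptors, 12 lipid-associated macrophage genes or 9 NRF2 and glutathione genes was past the rule, with median log2 ratios of -0.18, -0.32 and -0.33. The last list does not hold Gstm1 and Gsta3, glutathione transferases that were lower, and its lowest log2 ratio was -0.55. The mannose receptor Mrc1 was at 53.9 FPKM at 2 U/ml, against 88.5 FPKM in untreated cells, the fatty acid binding protein Fabp4 at 42.5 against 77.6 FPKM and Apoe at 40.5 against 68.2 FPKM. Of 30 cell cycle genes, Ccnd2 alone was past the rule, at 12.2 against 2.47 FPKM, and the proliferation marker Mki67 was at 25.5 against 35.4 FPKM. None of 10 housekeeping genes was past it, with a median of -0.07.

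**Figure D4:**
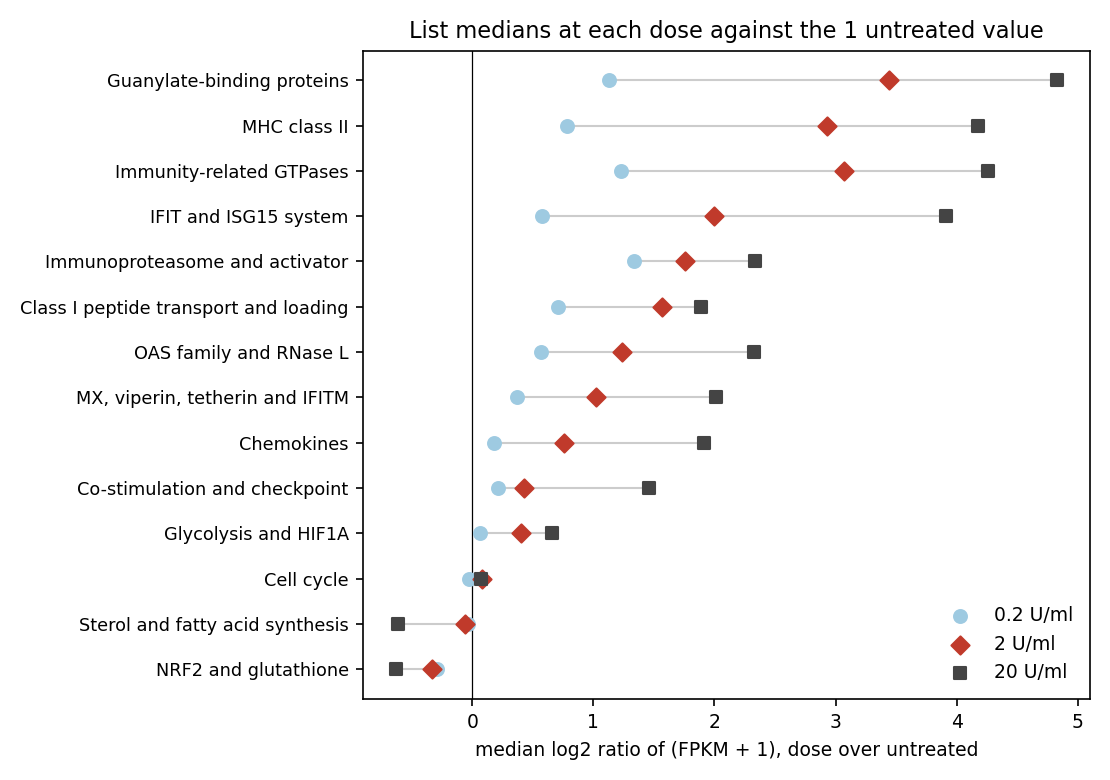
Median log2 ratio over untreated of selected gene lists at 0.2, 2 and 20 U/ml, where the 3 doses share the untreated values. MHC class II has medians of 0.78, 2.93 and 4.18, and the cell cycle list -0.03, 0.08 and 0.07.

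Side by side with the other doses, which are set against the same untreated values, the lists took different places at 2 U/ml. The immunoproteasome and its activator had median log2 ratios of 1.34 with 0.2 U/ml, 1.76 with 2 U/ml and 2.34 with 20 U/ml. MHC class II had 0.78, 2.93 and 4.18, and the guanylate-binding proteins 1.13, 3.44 and 4.83. The IFIT and ISG15 list had 0.58, 2.00 and 3.91, and chemokines 0.18, 0.76 and 1.91. Class I peptide transport and loading had 0.71, 1.57 and 1.88. Against untreated cells, 606 entries (5.23%) were higher at 0.2 U/ml and 38 (0.328%) lower. At 20 U/ml these were 754 entries (6.51%) and 340 entries (2.94%).

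A small set of entries was past the rule at 2 U/ml against untreated, 0.2 U/ml and 20 U/ml alike and in the same direction, 5 higher and 10 lower. Over all 11580 entries, 2.90% were higher and 1.11% lower at 20 than at 2 U/ml, and 1.51% were higher and 6.26% lower at 2 than at 0.2 U/ml. RNAs under 200 nt made up 3 of the 5 and 8 of the 10. Among the others, Tcf4, a helix-loop-helix transcription factor, was at 53.9 FPKM untreated, 54.1 FPKM with 0.2 U/ml, 21.2 FPKM with 2 U/ml and 44.5 FPKM with 20 U/ml. The merged entry of Mir5113 and Tnrc6b was at 2.85, 6.90, 24.4 and 4.36 FPKM in the same order. It joins a miRNA with a long gene, and the share of each in its value is not known. The lowest ratio in the comparison was also a short RNA, the annotated miRNA Mir7091, at 9.12 FPKM at 2 U/ml, against 168 FPKM in untreated cells. FPKM of such short RNAs is divided by a very small length and is read with caution.

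The label of the cells was set against marker genes. Csf1r, the CSF-1 receptor of macrophages, was at 416 FPKM at 2 U/ml and 349 FPKM in untreated cells, and the macrophage antigen Adgre1 at 189 and 151 FPKM. Of 15 measured lineage genes 2, Aif1 and Fcgr1, were higher. Markers of T and NK cells summed to 2.04 FPKM at 2 U/ml and 3.50 FPKM in untreated cells, with 13 of 14 under 1 FPKM in all groups, and markers of erythroid cells, mast cells and basophils were all under 1 FPKM. Of the dendritic cell markers 7 of 9 were under 1 FPKM in all groups. The entry that merges Clec9a with Clec1b was past the rule, at 7.16 against 1.27 FPKM. Of stromal and endothelial markers 8 of 12 were under 1 FPKM in all groups, with Cdh5 at 0.0627 and 0.0463 FPKM, but Vwf was at 57.2 FPKM at 2 U/ml, against 118 FPKM in untreated cells. The neutrophil markers summed to 46.5 FPKM at 2 U/ml and 44.5 FPKM in untreated cells, but they differed among themselves, with S100a8 at 25.6 against 13.3 FPKM and Mmp8, which was lower, at 5.78 against 15.9 FPKM. B cell markers summed to 14.3 FPKM at 2 U/ml and 11.5 FPKM in untreated cells, and osteoclast markers to 42.6 and 52.4 FPKM, with 0 entries of either list past the rule. The part of other cells in the results was not tested. In bulk RNA, fewer cells of a type and less RNA per cell cannot be told apart.

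Some entries lie at the limits of the rules. Just past the size rule were Id1 and Eng (log2 ratio 1.00 each), Dusp28, Lair1 and Treml2 (1.01 each), and just short were Vaultrc5, Isg20, Vegfa and Dbnl (0.99 each) and the entry of Mir7011 and Sema4a (0.98). On the lower side Htr2b was just past at -1.01 and Slc26a11 just short at -0.99. The filter on the mean kept Gm37022, with a mean of 1.00 FPKM, and left out Adgrb3, with 0.998 FPKM. A further 272 entries passed the mean but were listed at 0 in at least 1 group, among them the abundant macrophage genes Psap, Lyz2 and Ctsb. Psap was listed at 0 at 2 U/ml and in untreated cells but at 5086 FPKM at 0.2 U/ml. An exact 0 can be a failed estimate, and these entries have no ratio here. Entry medians were near each other in the 4 groups, at 12.3, 12.9, 12.8 and 13.3 FPKM for untreated cells and for 0.2, 2 and 20 U/ml. The sums over all entries differed more, at 769698, 1025970, 783701 and 904993 FPKM in the same order. The cause of that difference was not tested. The depth of the libraries is unknown.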

How the data were processed

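RNA was sequenced from the macrophages of the 4 groups, with 3 libraries each. Per the submitters' processing notes, the authors' tools were Cufflinks 2.1.1, TopHat2 2.1.1 and Cuffdiff 2.1.1, and the build was mm10. The deposited table gives FPKM, per the file headers, with 1 value per entry and group. No unit stands in the name of the untreated column, which was taken as FPKM from its like range of values. How libraries of a group were combined is not stated in the sources used here, and FPKM keeps no depth. A second deposited table, a Cuffdiff comparison that names no dose, was not used.

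Ratios were differences of log2(FPKM + 1), with the pseudocount 1 set by the rule, computed in Python 3.11.15 with pandas 2.3.3 and numpy 2.4.6 on entries with a mean of at least 1 FPKM and no 0. With 1 value per group no test was possible, so the size rule, a log2 ratio of at least 1 in size, replaced one. Of the 11580 entries, 695 merge overlapping genes and 201 hold only RNAs under 200 nt. Positions, types and lengths were taken from GENCODE M21 (GRCm38, as mm10), where 96.3% of the entries had every symbol matched. Promoter windows came from RefSeq on GRCm38.p6, matched by symbol.

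Named genes were the 20 highest and 20 lowest ratios among single genes of 200 nt or more that reached 2 FPKM in the higher of both groups, the 6 members or fewer with the largest ratios in size from each of 57 lists, all members of the receptor, STAT and feedback lists, the 10 largest gains and losses of FPKM, entries apart from both other doses, and the 5 entries nearest the size rule on each side. Ccl3, Slamf9, Csf1r, Adgre1, Cdh5 and the entries at the limit of the filter on the mean were named outside that rule, after their values were seen. So were Sdc3, Gsta3, Gm20496 and Gm15821. A few of these genes are not reported here. The comparison, the 57 lists and the 8 marker lists were chosen with earlier results of these data known. The alternatives were other pseudocounts, filters, scalings and sets of entries.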

Additional observations from a re-analysis of the deposited data

How the results depend on the processing

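Results were recomputed under 10 alternatives, with 1 choice changed at a time, wherever the alternative kept the entries concerned, and no named entry past the size rule changed direction. The median ratio over all entries, 0.01, lay between -0.05 and 0.02. The number of higher entries stayed between 257 and 401. The number of lower entries, 88 with the pseudocount of 1, was 174 with a pseudocount of 0.1, 192 with 0.01, 58 with a mean of at least 5 FPKM and 154 with entries listed at 0 included. The share of called entries that were higher ran from 67.6% to 81.6%, and it was between 71.7% and 72.8% under 3 scalings that moved the median ratio of all entries by less than 0.1. Some list medians changed sides of the size rule. The MX, viperin, tetherin and IFITM list had 0.98 without the filter, 0.97 with upper-quartile scaling, 0.98 with median scaling and 0.98 with quantile normalization. The cytosolic sensors had 1.01 and 1.02, and complement 1.24 and 1.28, with pseudocounts of 0.1 and 0.01. With a mean of at least 5 FPKM complement had 1.04 and the co-stimulation list, far from the rule at 0.43 otherwise, had 1.41. That mean takes in the treated groups, so it favours entries that were high there. At a size rule of 2 on the log2 scale 40.4% of the higher entries with a window held the ISRE core and 55.3% either core. For the 394 named entries, 3740 of the recomputed ratios kept their side, 30 lost the call and 71 gained it. Entries that an alternative leaves out, by its filter or as merged or short entries, have no ratio under it. Nos2 was among those that gained it, with a log2 ratio of 1.75 with a pseudocount of 0.1. The cause of these differences was not tested. Leaving out replicates could not be done with 1 value per group. No paired analysis was possible because the deposited values carry no replicate number. Depth is unknown, so its limit on low values could not be set.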

Other observations

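Among entries that belong to no gene list, Gm15662, which has no place in the annotation used, was at 1113 FPKM untreated, 6378 FPKM with 0.2 U/ml, 3535 FPKM with 2 U/ml and 15954 FPKM with 20 U/ml. The antisense RNA Gm26716 was at 717 FPKM at 2 U/ml, against 299 FPKM in untreated cells. It lies within Sdc3 on the other strand, and Sdc3 was itself higher, at 106 against 51.0 FPKM. Whether the reads of Gm26716 came from Sdc3 was not tested. Crygn, a crystallin, was at 2.27 FPKM untreated, 7.26 FPKM with 0.2 U/ml, 0.481 FPKM with 2 U/ml and 3.08 FPKM with 20 U/ml. Thoc2, a subunit of the mRNA export complex, was at 91.8 FPKM untreated, 170 FPKM with 0.2 U/ml, 44.2 FPKM with 2 U/ml and 65.4 FPKM with 20 U/ml, and so was also low at 2 U/ml relative to the dose below it.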
